A study of Mus musculus with 7 samples.

Results

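The 8 genes described here encode enzymes and a carrier by which inflamed tissue makes nitric oxide, itaconate and kynurenine and makes or breaks down polyamines. They are Nos2, Acod1, Ido1, Ido2, Gch1, Slc7a2, Odc1 and Sat1. They were chosen by gene symbol, and all 8 were found among the 56691 genes of the count table for mouse liver. Nitric oxide synthases make nitric oxide from arginine and need the cofactor tetrahydrobiopterin, while ornithine derived from the same arginine is the source of polyamines. Itaconate is drawn off the citric acid cycle in activated macrophages, and indoleamine and tryptophan dioxygenases open the kynurenine route of tryptophan breakdown. In the liver, hepatocytes hold most of the tryptophan dioxygenase, and the inducible synthase and the itaconate enzyme are best known from macrophages exposed to bacterial lipopolysaccharide.

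Liver RNA from 7 male C57BL/6J mice was measured by stranded sequencing of polyadenylated RNA on the MGISEQ2000 platform. The mice were bought at 8 weeks of age and kept for 2 weeks before use. In the LPS group, 3 mice received lipopolysaccharide (LPS), an outer membrane component of Gram-negative bacteria, at 10 mg/kg into the peritoneal cavity, and livers were taken 24 h later. The control group held 4 mice of the same strain, sex and age, and the labels do not give what these mice received. The comparison asks how the liver transcriptome after LPS differs from that of control mice.

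Total counts were 14991022, 15096573, 15721944 and 18584140 in control mice 1 to 4 and 20500391, 17095607 and 17821331 in LPS mice 1 to 3. Each library was taken as that of a separate mouse, and p-values measure the spread between these samples. LPS mice 2 and 3 were much alike, and LPS mouse 1 stood apart from them. Over genes with more than 2000 counts in a pair, the log2 ratio between LPS mice 2 and 3 had an SD of 0.10, against 0.31 for either of them with LPS mouse 1 and 0.29 to 0.58 for pairs of control mice. The variance between LPS mice 2 and 3 was 3.81 times that of counting noise. Mitochondrial transcripts took 23.7%, 14.6%, 7.48% and 8.96% of counts in control mice 1 to 4 and 6.45%, 3.83% and 3.94% in LPS mice 1 to 3. These shares did not overlap between groups, and their part in the results was not tested.

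Levels are given as CPM, the count of a gene relative to the scaled size of its library, in which 1 read is worth 0.0460 to 0.0707 CPM. A gene was called when the edgeR quasi-likelihood test gave a Benjamini-Hochberg adjusted p under 0.05 over 13683 tested genes and the log2 fold change was beyond 1 in either direction. Of the 8 genes, 6 passed the filter on low counts, and Nos2 and Ido1 did not. Acod1 and Slc7a2 were called higher in LPS mice, where 7.81% of all tested genes were called higher. Gch1 was called lower, where 7.31% of all tested genes were called lower. Ido2, Odc1 and Sat1 were tested and not called. Acod1 passed the filter only through its counts in LPS mice, so it had to differ, and the number called is a description of these genes and no evidence about the group. In whole liver, fewer cells of a type and less RNA per cell cannot be told apart. Groups that did not overlap are noted for single genes as a description only. The share of all tested genes without overlap is not given here, and 26.3% of all tested genes passed the adjusted p in either direction. The plot of levels in each mouse shows all 8 genes.

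**Figure D1:**
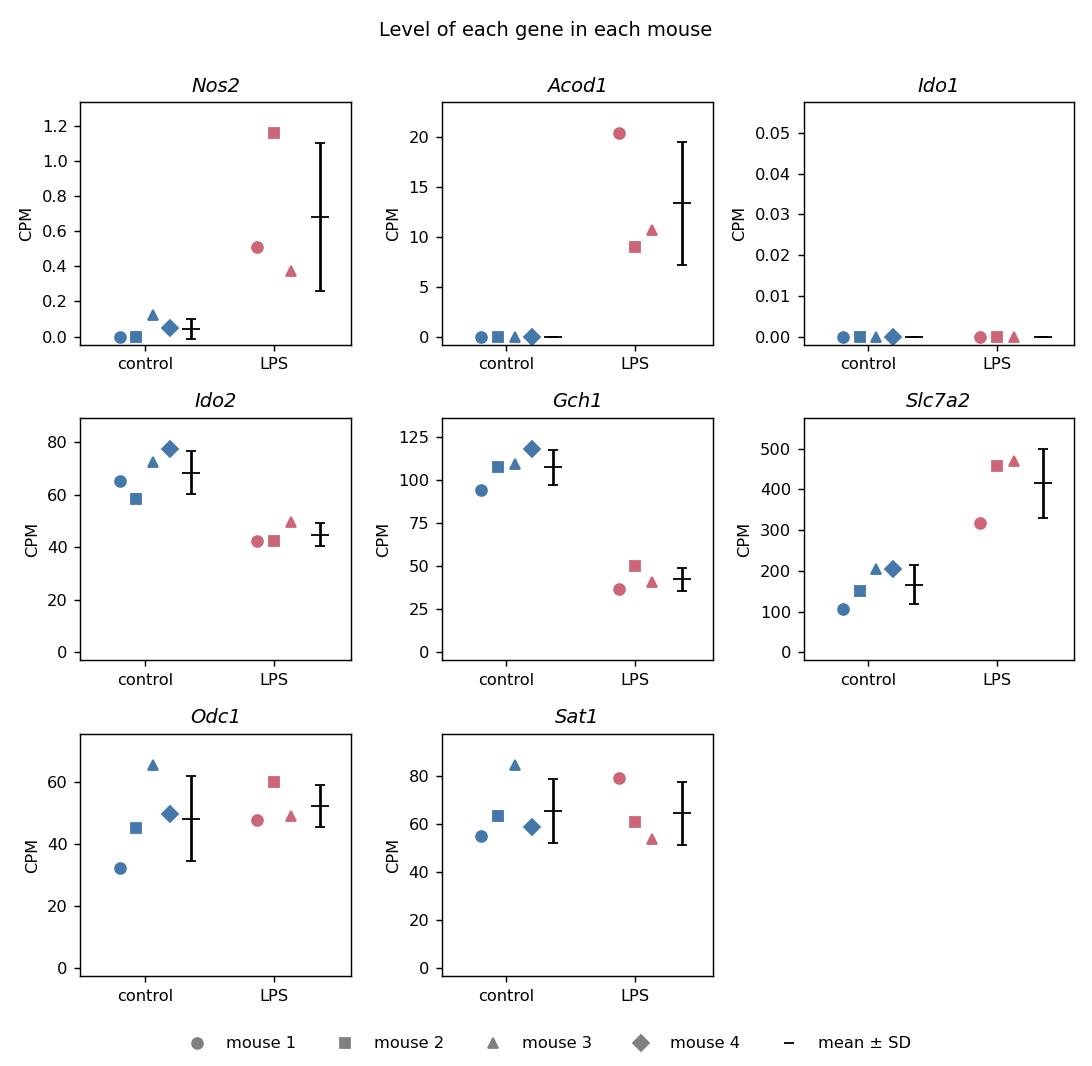
Level in CPM (vertical axis, linear) of each of the 8 genes in 4 control mice (blue) and 3 LPS mice (red), with symbols for mouse number and black bars for the mean ± SD of each group. Acod1, Slc7a2 and Nos2 lay higher in every LPS mouse than in any control mouse, Gch1 and Ido2 lay lower, Odc1 and Sat1 overlapped, and Ido1 was at 0 in all 7 mice.

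Nos2 (ENSMUSG00000020826), the inducible nitric oxide synthase, was near the detection limit. It had 0, 0, 2 and 1 counts in control mice 1 to 4 and 11, 18 and 6 counts in LPS mice 1 to 3. Every LPS mouse had more counts than any control mouse, and LPS mouse 2 had the most. Summed over mice, 35 counts in the LPS group stood against 3 in the control group, a ratio of 14.7 after scaling for library size, with an exact 95% interval of 4.63 to 74.6 that covers counting error only. The ratio ranged from 10.1 without LPS mouse 2 to 33.3 without control mouse 3. Because Nos2 did not pass the filter, its edgeR test is that of the fit of all 23651 genes with a count, where the adjusted p was 0.0279. DESeq2 also called it (log2 fold change 3.95, adjusted p = 0.0185). Leaving out a single mouse raised the edgeR adjusted p to 0.0628 (control mouse 1), 0.0778 (control mouse 2), 0.0564 (control mouse 4), 0.0523 (LPS mouse 1) or 0.276 (LPS mouse 2), and over 15 alternative settings it ranged from 0.0154 to 0.276.

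The other synthases were also low. Nos1, the neuronal form, had 4, 6, 0 and 3 counts in control mice 1 to 4 and 3, 1 and 0 in LPS mice 1 to 3. Nos3, the endothelial form, was at 1.55, 2.58, 1.04 and 1.55 CPM in control mice 1 to 4 and at 4.28, 1.16 and 1.62 CPM in LPS mice 1 to 3. LPS mouse 1 had the highest Nos3 level and the other two LPS mice lay inside the control range, so that the groups overlapped. The log2 difference of Nos3 was 0.50 with all mice (edgeR adjusted p = 0.522) and -0.27 without LPS mouse 1 (adjusted p = 0.772, the highest of 16 alternatives that reached down to 0.330).

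Gch1 (ENSMUSG00000037580), GTP cyclohydrolase, the first and rate-limiting enzyme of tetrahydrobiopterin synthesis, was abundant in control liver and fell after LPS. Its level was 94.1, 108, 109 and 118 CPM in control mice 1 to 4 and 36.7, 49.9 and 41.0 CPM in LPS mice 1 to 3. All 3 LPS mice lay below all 4 control mice, with a gap wider than the range within either group. The group means were 107 ± 9.95 CPM (SD, n = 4) and 42.5 ± 6.70 CPM (SD, n = 3), 2.52-fold lower in LPS mice. The log2 fold change was -1.34 (SE 0.15, edgeR adjusted p = 4.12e-05), and it stayed between -1.46 and -1.24 when any single mouse was left out. Gchfr, the regulatory protein that binds GTP cyclohydrolase, was at 31.2, 41.5, 37.0 and 29.4 CPM in control mice and 21.7, 24.3 and 23.2 CPM in LPS mice. Its groups did not overlap either, with a log2 fold change of -0.59 (SE 0.16, edgeR adjusted p = 0.0142) that was short of the fold needed for a call. The edgeR adjusted p of Gchfr was 0.0547 without LPS mouse 1, 0.0587 without LPS mouse 3 and 0.0529 with LPS mice 2 and 3 summed. Over 16 alternatives it reached down to 0.00902.

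The nitric oxide list holds 18 genes for the synthases, their cofactor, their inhibitors and their receptor. Of these, 16 were tested, 0 were called higher, 3 were called lower and 13 were not called, and the median log2 fold change was -0.63 against -0.01 over all tested genes. At an unadjusted edgeR p under 0.05, 1 was higher and 10 were lower, where 18.7% of all tested genes were higher and 18.7% lower at that threshold. DESeq2 called 1 higher, which was Nos2, and 3 lower. The 3 called lower were Gch1, Ddah1 and Gucy1b1. Ddah1, which breaks down the methylated arginines that inhibit nitric oxide synthases, was at 109 ± 20.1 CPM (SD, n = 4) in control mice and 25.2 ± 0.301 CPM (SD, n = 3) in LPS mice, 4.32-fold lower (log2 -2.11, SE 0.17, edgeR adjusted p = 1.75e-06). Gucy1b1, a subunit of the nitric oxide receptor guanylate cyclase, had a log2 fold change of -1.03 (SE 0.33, edgeR adjusted p = 0.0382). All 3 LPS mice lay below the control mice for both genes. The call of Gucy1b1 was lost when control mouse 1, 2 or 4 or LPS mouse 2 or 3 was left out (edgeR adjusted p of 0.0669, 0.0782, 0.0919, 0.140 and 0.149). It was also lost when LPS mice 2 and 3 were summed (0.128) and with the replicate number as a block (0.0516). The adjusted p of Gucy1b1 ranged from 0.0117 to 0.149 over 16 alternatives.

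Slc7a2 (ENSMUSG00000031596), a carrier of cationic amino acids that brings arginine into cells, rose. Its level was 105, 149.7, 204 and 204 CPM in control mice 1 to 4 and 318, 457 and 471 CPM in LPS mice 1 to 3. Every LPS mouse lay above every control mouse, and LPS mouse 1 was the lowest of the LPS group. Means were 166 ± 47.7 CPM (SD, n = 4) and 415 ± 84.6 CPM (SD, n = 3), 2.51-fold higher in LPS mice. The log2 fold change was 1.33 (SE 0.23, 95% interval 0.83 to 1.82, edgeR adjusted p = 0.000908), with 1.49 when LPS mouse 1 was left out. In GENCODE M21 its exons share 635 bases with Gm26584 on the opposite strand, and since the strand setting of the counting is not given in the sources used here, reads in that stretch cannot be assigned with certainty. Slc7a1, a widely expressed carrier of the same substrates, was at 0.848, 1.51, 0.427 and 1.01 CPM in control mice and 2.30, 1.80 and 2.18 CPM in LPS mice. The Slc7a1 groups did not overlap, and its log2 difference of 1.13 (SE 0.49, edgeR adjusted p = 0.110) was not called.

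Ass1, which joins citrulline and aspartate on the way back to arginine, had means of 1475 ± 161 CPM (SD, n = 4) and 1475 ± 292 CPM (SD, n = 3). Its groups overlapped, and the 95% interval of its log2 difference ran from -0.39 to 0.39 (edgeR adjusted p = 0.999).

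Of 14 genes reported for arginine supply and use, 12 were tested, 4 were called higher, 1 was called lower and 7 were not called. Over all tested genes, 7.81% were called higher and 7.31% lower. The median log2 fold change of the list was 0.44, but 0.000395 without Slc7a2, against -0.01 over all tested genes. Highest was Slc7a6, a carrier that exchanges cationic for neutral amino acids, at 0.263 ± 0.271 CPM (SD, n = 4) in control mice and 2.53 ± 0.0434 CPM (SD, n = 3) in LPS mice (log2 3.26, SE 0.67, edgeR adjusted p = 0.00309). Its counts were 9, 1, 1 and 6 in control mice and 55, 40 and 40 in LPS mice, and without control mouse 1 its log2 fold change was 4.04. Like Acod1, Slc7a6 passed the filter only through its LPS counts, so it had to differ to be tested. Asl, which releases arginine from argininosuccinate, also rose (log2 1.56, edgeR adjusted p = 6.25e-05), and the only one of the 14 called lower was Otc, the urea cycle enzyme that makes citrulline from ornithine. Otc was at 659 ± 84.8 CPM (SD, n = 4) in control mice and 163 ± 21.9 CPM (SD, n = 3) in LPS mice, 4.03-fold lower (log2 -2.01, SE 0.17, edgeR adjusted p = 2.86e-06). The others called higher were Slc7a2 and, named after its values were seen, Slc7a7 (log2 fold change 1.38), another exchanger of cationic amino acids. All LPS mice lay beyond the control range for Slc7a6, Otc, Asl and Slc7a7.

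Odc1 (ENSMUSG00000011179), ornithine decarboxylase, which makes putrescine from ornithine as the first step of polyamine synthesis, was not called. Its level was 32.4, 45.1, 65.8 and 49.8 CPM in control mice 1 to 4 and 47.8, 60.1 and 49.2 CPM in LPS mice 1 to 3. All 3 LPS mice lay inside the control range, which control mouse 1 set at the low end and control mouse 3 at the high end. The log2 difference was 0.12 (SE 0.21, edgeR adjusted p = 0.732), and its 95% interval of -0.33 to 0.56 holds differences of either sign. In GENCODE M21, 19 other loci share at least 200 bases with Odc1 transcripts at 90% identity or more. Of these, 8 had counts, 728 in all against 6046 for Odc1, so a small part of the reads could lie on either, and how reads with several matches were counted is not given in the sources used here.

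Sat1 (ENSMUSG00000025283), which acetylates spermidine and spermine for export or breakdown, also kept overlapping groups. It was at 55.2, 63.4, 84.9 and 58.9 CPM in control mice 1 to 4 and 79.2, 60.9 and 53.8 CPM in LPS mice 1 to 3. Control mouse 3 and LPS mouse 1 were the high ones, and LPS mouse 3 was the lowest of all 7. The log2 difference was -0.02 (SE 0.18, 95% interval -0.42 to 0.38, edgeR adjusted p = 0.953).

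Of the 18 polyamine genes, 17 were tested, 0 were called higher, 1 was called lower and 16 were not called, with a median log2 fold change of -0.04. Unadjusted edgeR p-values under 0.05 were found for 1 higher and 3 lower genes, and DESeq2 called 0 higher and 1 lower. Among all tested genes, 7.81% were called higher and 7.31% lower, and 18.7% were higher and 18.7% lower at that unadjusted p. The gene called lower was Agmat, which is annotated as an agmatinase, at 68.6 ± 8.48 CPM (SD, n = 4) in control mice and 33.8 ± 7.06 CPM (SD, n = 3) in LPS mice. All LPS mice lay below the control mice, with a log2 fold change of -1.02 (SE 0.17, edgeR adjusted p = 0.000838) that shrank to -0.96 without control mouse 2 and to -0.85 without LPS mouse 1, short of the fold needed for a call. Oaz1, the antizyme that marks ornithine decarboxylase for breakdown, was at 152 ± 27.7 CPM (SD, n = 4) and 123 ± 13.5 CPM (SD, n = 3), and Azin1, the inhibitor of antizyme, at 69.1 ± 6.45 CPM (SD, n = 4) and 69.7 ± 4.82 CPM (SD, n = 3). Neither was called (edgeR adjusted p = 0.210 and 0.961), and both overlapped between groups. Smox, the spermine oxidase, was at 0.707, 1.70, 1.77 and 1.74 CPM in control mice and 3.45, 2.45 and 1.99 CPM in LPS mice. Its LPS values all lay above the control values, and the log2 difference of 0.82 (SE 0.43, edgeR adjusted p = 0.187) was not called.

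Acod1 (ENSMUSG00000022126), the mitochondrial enzyme that makes itaconate from cis-aconitate, was found only in LPS mice. It had 0 counts in each of the 4 control mice and 443, 139 and 171 counts in LPS mice 1 to 3. In CPM the LPS mice were at 20.4, 8.94 and 10.6, a mean of 13.3 ± 6.18 CPM (SD, n = 3), with LPS mouse 1 highest. With 3 counts in each control library as the most that a count of 0 allows, Acod1 was at least 73.1-fold higher in LPS mice, and at least 53.7-fold higher without LPS mouse 1. The edgeR adjusted p was 3.80e-06. The groups did not overlap, and the call held in each of 15 alternatives.

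Of 13 genes for itaconate and its cycle, all 13 were tested, Acod1 was the 1 called higher, 0 were called lower and 12 were not called, with a median log2 fold change of -0.44 that was the same with Acod1 set at its lower bound. Unadjusted edgeR p-values under 0.05 were found for Acod1 and for 8 lower genes, which were short of the fold or of the adjusted p, and DESeq2 called 1 higher and 0 lower. Of all tested genes, 7.81% were called higher and 7.31% lower, and 18.7% were higher and 18.7% lower at that unadjusted p. The most abundant gene of the list was Sdha, a subunit of succinate dehydrogenase, which itaconate inhibits, at 330.4 CPM in control mice and 223 CPM in LPS mice on average. Sdha levels overlapped between groups, and the log2 difference of -0.57 (SE 0.22, edgeR adjusted p = 0.0783) was not called.

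Ido1 (ENSMUSG00000031551), the inducible indoleamine dioxygenase that starts tryptophan breakdown outside the liver, had 0 counts in all 7 mice. At 3 counts per library, this allows a level of up to 0.138 to 0.212 CPM, depending on the mouse, so a change of Ido1 was not detectable at this depth. Its paralog Ido2 (ENSMUSG00000031549), a dioxygenase with low activity toward tryptophan, was detected in every mouse. Ido2 was at 65.1, 58.6, 72.5 and 77.5 CPM in control mice 1 to 4 and 42.3, 42.3 and 49.7 CPM in LPS mice 1 to 3. All LPS mice lay below all control mice. The means of 68.4 ± 8.31 CPM (SD, n = 4) and 44.8 ± 4.30 CPM (SD, n = 3) differed 1.53-fold, with a log2 fold change of -0.61 (SE 0.15, 95% interval -0.93 to -0.29, edgeR adjusted p = 0.00829). It passed the adjusted p, as 26.3% of all tested genes did in either direction, and not the fold threshold. The highest adjusted p over 16 alternatives was 0.0564 and the lowest 0.00244.

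Tdo2, the dioxygenase that carries most hepatic tryptophan breakdown, was the most abundant gene of the tryptophan list. It was at 965, 1045, 1686 and 1355 CPM in control mice 1 to 4 and 2591, 3412 and 3299 CPM in LPS mice 1 to 3. Every LPS mouse lay above every control mouse, and Tdo2 rose 2.46-fold (log2 fold change 1.30, SE 0.21, edgeR adjusted p = 0.000638). Of the 14 genes, 13 were tested, 4 were called higher, 0 were called lower and 9 were not called, with a median log2 fold change of 0.06. Unadjusted edgeR p-values under 0.05 were found for 4 higher and 5 lower genes, and DESeq2 also called 4 higher and 0 lower. The shares over all tested genes were 7.81% called higher and 7.31% called lower, with 18.7% higher and 18.7% lower at that unadjusted p. Acmsd, which diverts an intermediate of the route away from NAD synthesis, was at 13.5 ± 5.43 CPM (SD, n = 4) in control mice and 63.3 ± 14.8 CPM (SD, n = 3) in LPS mice, 4.69-fold higher (edgeR adjusted p = 0.000108). Wars, the tryptophanyl-tRNA synthetase, rose 2.30-fold (edgeR adjusted p = 0.000202). Kmo, which hydroxylates kynurenine, was at 276 ± 24.0 CPM (SD, n = 4) and 560.0 ± 121 CPM (SD, n = 3), with a log2 fold change of 1.02 (SE 0.17, edgeR adjusted p = 0.000709) that was 0.96 without control mouse 1, 0.95 without LPS mouse 2 and 0.91 without LPS mouse 3. It was 0.94 with LPS mice 2 and 3 summed, 0.88 on total counts without scaling and 0.998 with at least 10 counts required in every mouse, so that the call of Kmo was lost in each of these. Relative to the median of all genes, Kmo was at 1.01 on total counts and 1.02 with that filter, against 1.03 in the main fit. The groups did not overlap for Acmsd, Wars and Kmo.

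**Figure D2:**
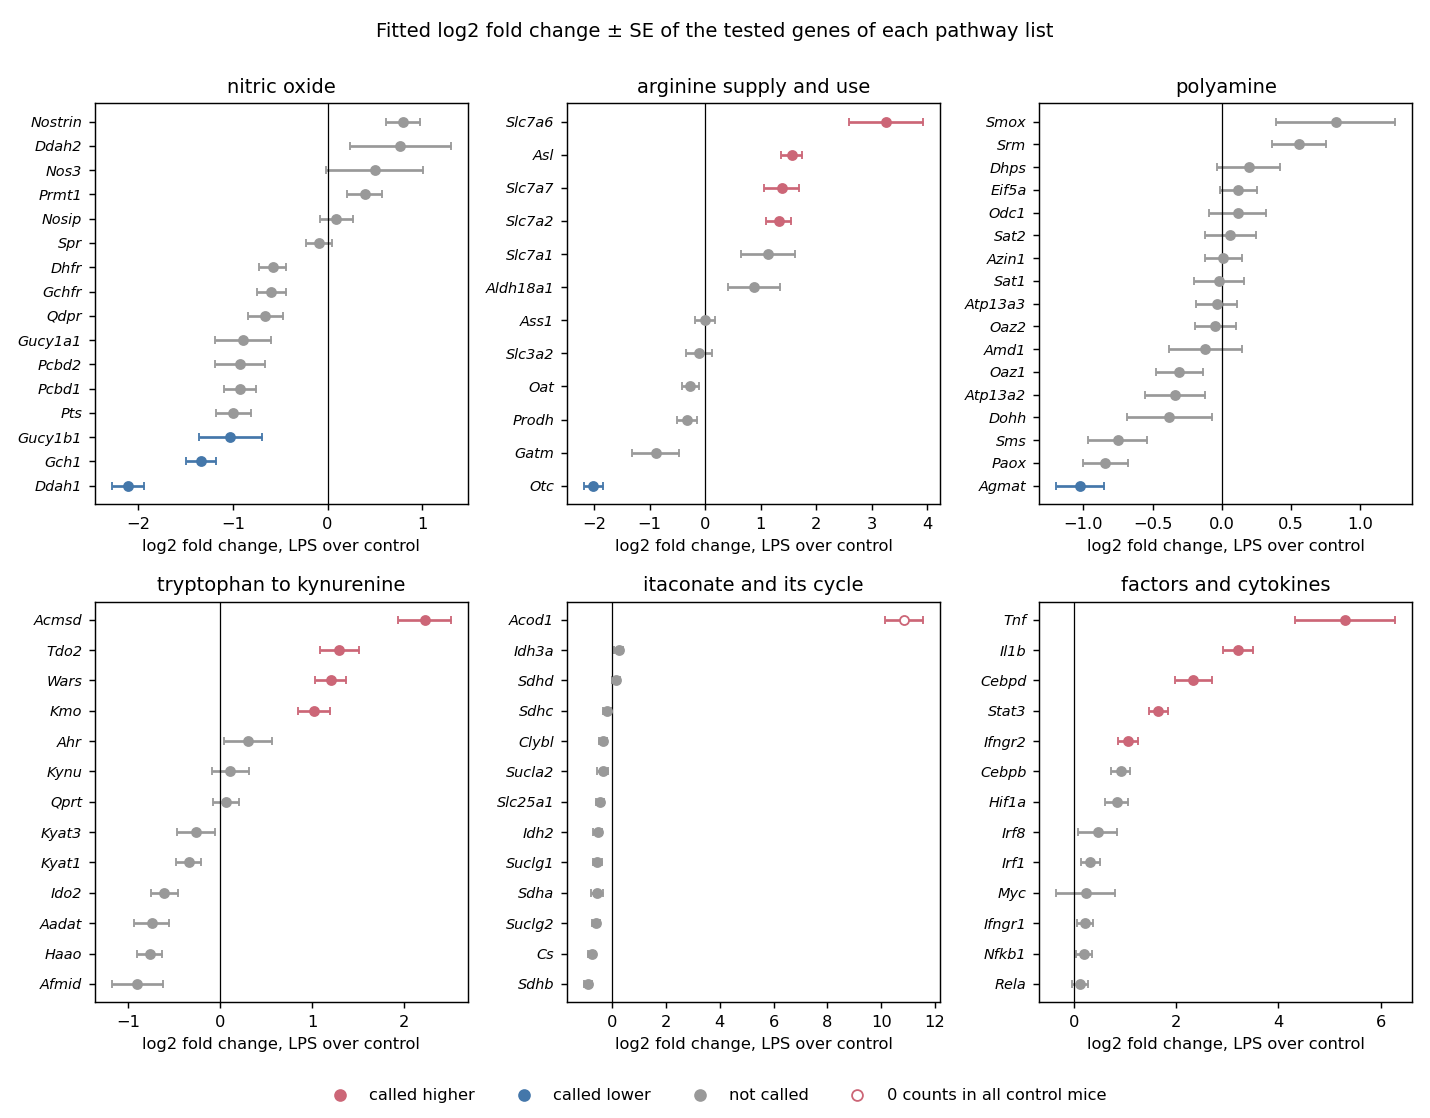
Fitted log2 fold change of LPS over control mice (horizontal axis, a different range in each panel) with its SE for every tested gene of 6 pathway lists, in red where called higher, blue where called lower and grey where not called. The open point is Acod1, whose fitted value rests on 0 counts in all control mice and is no bound, and Ddah1 and Otc are the lowest called genes at -2.11 and -2.01.

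Reported here are 15 transcription factors, cytokines and receptors that the test plan lists as known drivers of genes like these. Their part in the levels of the 8 genes was not tested. Of the 15, 13 were tested, 5 were called higher, 0 were called lower and 8 were not called, with a median log2 fold change of 0.84. Unadjusted edgeR p-values under 0.05 were found for 7 higher and 0 lower genes, and DESeq2 called 5 higher and 0 lower. Over all tested genes, 7.81% were called higher and 7.31% lower, and 18.7% were higher and 18.7% lower at that unadjusted p. Tnf, the cytokine tumor necrosis factor, had 0, 3, 0 and 0 counts in control mice 1 to 4 and 83, 21 and 16 counts in LPS mice 1 to 3. LPS mouse 1 held most of the Tnf counts, and Tnf passed the filter only through LPS mice, so it had to differ to be tested. Summed, 120 counts stood against 3, a ratio of 50.3 after scaling (exact 95% interval 16.8 to 247, counting error only), or 26.2 without LPS mouse 1 (edgeR adjusted p = 0.00154 with all mice). Control mouse 2 held all 3 control counts, and without it the control group was at 0. Il1b, the cytokine interleukin-1 beta, was at 0.990, 2.14, 2.14 and 1.45 CPM in control mice and 11.6 to 20.1 CPM in the 3 LPS mice, 9.27-fold higher (edgeR adjusted p = 5.48e-06). Cebpd, a transcription factor of the acute phase response, was at 1.80 ± 0.949 CPM (SD, n = 4) in control mice and 9.12 ± 0.726 CPM (SD, n = 3) in LPS mice, 5.05-fold higher (edgeR adjusted p = 0.000364). The other genes called higher, named after their values were seen, were Stat3 (log2 fold change 1.66) and Ifngr2 (1.06, but 0.97 without control mouse 2 and 0.94 on total counts without scaling, short of the fold needed for a call). Relative to the median of all genes, Ifngr2 was at 1.07 on total counts, against 1.08 in the main fit. For the 5 genes called higher, all LPS mice lay above all control mice.

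Ifng, which encodes interferon gamma, had 5, 0, 0 and 1 counts in control mice and 0, 0 and 2 in LPS mice, at or near the floor of 3 counts in both groups. Irf1, a transcription factor induced by interferon gamma, was at 22.6 ± 5.26 CPM (SD, n = 4) and 28.3 ± 2.26 CPM (SD, n = 3) with overlapping groups (edgeR adjusted p = 0.213).

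Ratios of counts between genes of 1 route do not depend on the scaling of libraries. For 6 such ratios, of which 5 are given, group means of the log2 ratio were compared by a two-sided exact permutation test over the 35 assignments of the mice, with Benjamini-Hochberg adjustment over the 6. The smallest p this design allows is 0.0286. The log2 ratio of Ido2 to Tdo2 was -3.89, -4.16, -4.54 and -4.13 in control mice and -5.94, -6.33 and -6.05 in LPS mice. The groups were separate, and the difference of -1.93 gave the smallest possible p of 0.0286 (exact permutation test, adjusted p = 0.0857). The ratio of Gch1 to Gchfr was 1.59, 1.37, 1.56 and 2.01 in control mice and 0.76, 1.04 and 0.82 in LPS mice on the log2 scale. It too was separate between groups, with a difference of -0.76 (exact permutation p = 0.0286, adjusted p = 0.0857). Neither passed the adjusted threshold. Both were at the smallest p possible, and with 6 ratios adjusted together they could pass only if further ratios were at that p too.

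The other ratios overlapped between groups. The log2 ratio of Nos2 to Nos3 differed by 3.09 (exact permutation p = 0.0857, adjusted p = 0.171). Its size depends on the pseudocount, since control mice 1 and 2 had 0 Nos2 counts, and it was 2.50 with a pseudocount of 1 and 2.25 to 3.76 when any single mouse was left out, lowest without LPS mouse 2 and highest without LPS mouse 1. The log2 ratio of Sat1 to Odc1 differed by -0.17 (exact permutation p = 0.486, adjusted p = 0.583). The log2 ratio of Slc7a2 to Slc7a1 differed by 0.12, less than the SD within either group (0.98 and 0.45), and had the largest p of those given.

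To compare genes with each other, mean levels were divided by the length of their exons in GENCODE M21 and are given as CPM per kilobase. In control mice the order was Sat1 (23.6), Ido2 (18.8), Slc7a2 (18.1), Gch1 (17.2), Odc1 (14.2), Nos2 (0.00966), and Acod1 and Ido1 at 0. The first 5 overlapped between neighbours over the 4 mice, and each of them lay above Nos2 in every mouse. In LPS mice the order was Slc7a2 (45.5), Sat1 (23.3), Odc1 (15.4), Ido2 (12.3), Gch1 (6.80), Acod1 (5.08), Nos2 (0.154) and Ido1 at 0. There, Gch1 and Acod1 were the only neighbours whose ranges overlapped over the 3 mice. On the same scale, Tdo2 was at 325 in control mice and Ido2 at 18.8, and Nos3 was at 0.407 and Nos2 at 0.00966.

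For each tested gene, the most similar genes were taken as those with the smallest root mean square distance of log2 CPM over the 7 mice, each gene centred on its control mean. For Gch1 these were Gstm4 (distance 0.10) and Alas2 (0.11), for Slc7a2 Atl2 (0.11) and Lpgat1 (0.12), and for Ido2 Rnf5 (0.04) and Acad8 (0.07). The closest to Odc1 were Ubr7 and Hmgxb4 (0.07 each), and to Sat1 Wwtr1 (0.07) and Cnnm4 (0.08). Acod1 was closest to Ngp and Crybb3 (0.42 each), distances several times those of the more abundant genes. Ngp, like Acod1, had 0 counts in all control mice.

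Marker genes of liver cell types were read in the same libraries. For the counts of each list, 7.81% of all tested genes were called higher and 7.31% lower. At an unadjusted edgeR p under 0.05, 18.7% of all tested genes were higher and 18.7% lower. The hepatocyte list had 7 genes tested of 8 listed, with Tf not analysed here, and summed to 64717, 63130.4, 90201 and 76613 CPM in control mice 1 to 4 and 43825, 48106 and 47920.2 CPM in LPS mice 1 to 3. Alb, its most abundant gene, was at 46926 CPM in control mice and 24637 CPM in LPS mice on average, and 1 hepatocyte gene was called lower and the other 6 were not called (median log2 fold change 0.14). The sums were lower in all LPS mice, as was Alb, which held most of each sum. The gene called lower was Ttr (log2 fold change -1.23). Alb and Apoa1 were also lower in every LPS mouse (log2 -0.93 and -0.70, edgeR adjusted p = 0.0137 and 0.0231), and Hnf4a was higher (0.74, adjusted p = 0.00961), all 3 short of the fold needed for a call. Cps1, Ahsg and Apob had higher means in LPS mice (log2 differences of 0.62, 0.28 and 0.14) and did not pass the adjusted p. At an unadjusted edgeR p under 0.05, 2 of the 7 were higher and 3 lower. The genes of this list other than Alb were named after their values were seen. Each of the 7 genes was detected in every library, as the liver label implies. The neutrophil list summed to 5.23, 4.10, 1.95 and 3.53 CPM in control mice and 224, 166 and 163 CPM in LPS mice. S100a9, its most abundant gene over all 7 mice, was at 1.17 and 82.8 CPM on average, although in control mice Csf3r was above it at 1.43 CPM. Its 9 tested genes of 11 were called higher, with a median log2 fold change of 6.31, and several had counts almost only in LPS mice, so that they had to differ to be tested. Ly6g and Ngp were at 0 in all control mice, and Ly6g had 7, 0 and 1 counts in LPS mice 1 to 3.

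The monocyte list, with 5 of 6 genes called higher and a median log2 fold change of 2.70, summed to 36.8, 42.8, 44.0 and 23.5 CPM in control mice and 179, 147 and 150.2 CPM in LPS mice, led in both groups by Lyz2 at 31.5 and 75.9 CPM, and some of these genes passed the filter only through LPS mice. The Kupffer cell and macrophage list, with 4 of 10 called higher, 1 lower and a median of 0.70, summed to 136, 197, 178 and 122 CPM in control mice and 709.8, 150.4 and 155 CPM in LPS mice. LPS mouse 1 had by far the highest sum, and those of LPS mice 2 and 3 lay inside the control range. A large share of each LPS sum was Marco, the most abundant gene in LPS mice, at 409, 66.4 and 65.5 CPM in LPS mice 1 to 3 against 2.37 to 5.55 CPM in control mice. In control mice Clec4f was the most abundant, and it was the gene called lower, at 54.4 ± 11.7 CPM (SD, n = 4) in control mice and 12.3 ± 10.3 CPM (SD, n = 3) in LPS mice (log2 fold change -2.13, edgeR adjusted p = 0.00216). Cd5l was at 24.1 to 44.9 CPM in control mice and at 75.7, 4.89 and 3.30 CPM in LPS mice 1 to 3, and Timd4 at 1.98 to 5.25 CPM and at 12.8, 0.0644 and 0.622 CPM. Both were above the control range in LPS mouse 1 and below it in LPS mice 2 and 3, and neither was called. Besides Marco, the genes called higher were Cd68, Adgre1 and C1qb (log2 fold changes of 2.23, 1.62 and 1.21). For each of them all LPS mice lay above all control mice, and LPS mouse 1 was highest. All macrophage genes given here were named after their values were seen. Neutrophil and monocyte sums were higher in all LPS mice, as were Acod1 and Nos2. LPS mouse 1 was the highest of all 7 mice in Acod1, Tnf and Nos3. It was also the highest in the macrophage, neutrophil, monocyte and endothelial sums, so this is not particular to the macrophage list. Nos2 was highest in LPS mouse 2. The part of these cell types in the levels of the 8 genes was not tested.

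The remaining lists overlapped between groups in their sums. The endothelial list, with 2 of 6 called higher, 1 lower and a median log2 fold change of -0.09, summed to 78.9 to 124 CPM in control mice and 66.8 to 134 CPM in LPS mice. By mean level Stab2 was the most abundant over all 7 mice, while Clec4g (25.3 CPM) was close to Stab2 (25.2 CPM) in control mice and Pecam1 was highest in LPS mice (26.3 CPM). The gene called lower was Clec4g, at 1.16 CPM in LPS mice (log2 fold change -4.43, edgeR adjusted p = 2.23e-06). The 2 called higher were Pecam1 and Lyve1 (log2 fold changes of 1.28 and 1.76). Stellate cell genes, with 2 of 6 called lower and a median of -0.13, summed to 149 to 333 CPM and 171 to 215 CPM, led by Dcn. For cholangiocytes, with 1 of 5 called higher and a median of -0.34, sums were 72.1 to 262 CPM and 137 to 164 CPM, led by Spp1. Lymphocyte genes summed to 2.17 to 4.29 CPM and 1.22 to 2.98 CPM, with 2 of 6 tested, neither called although both were lower at an unadjusted edgeR p under 0.05 (median -2.07). Cd79a was the most abundant over all 7 mice and in control mice, and Klrb1c in LPS mice (0.891 CPM). Dendritic cell genes summed to 5.85 to 10.9 CPM and 4.23 to 9.85 CPM, with 2 of 5 tested, neither called (median -0.17), and Zbtb46 most abundant. Csf3r, Clec4g, Pecam1, Lyve1 and Klrb1c were named after their values were seen.

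**Figure D3:**
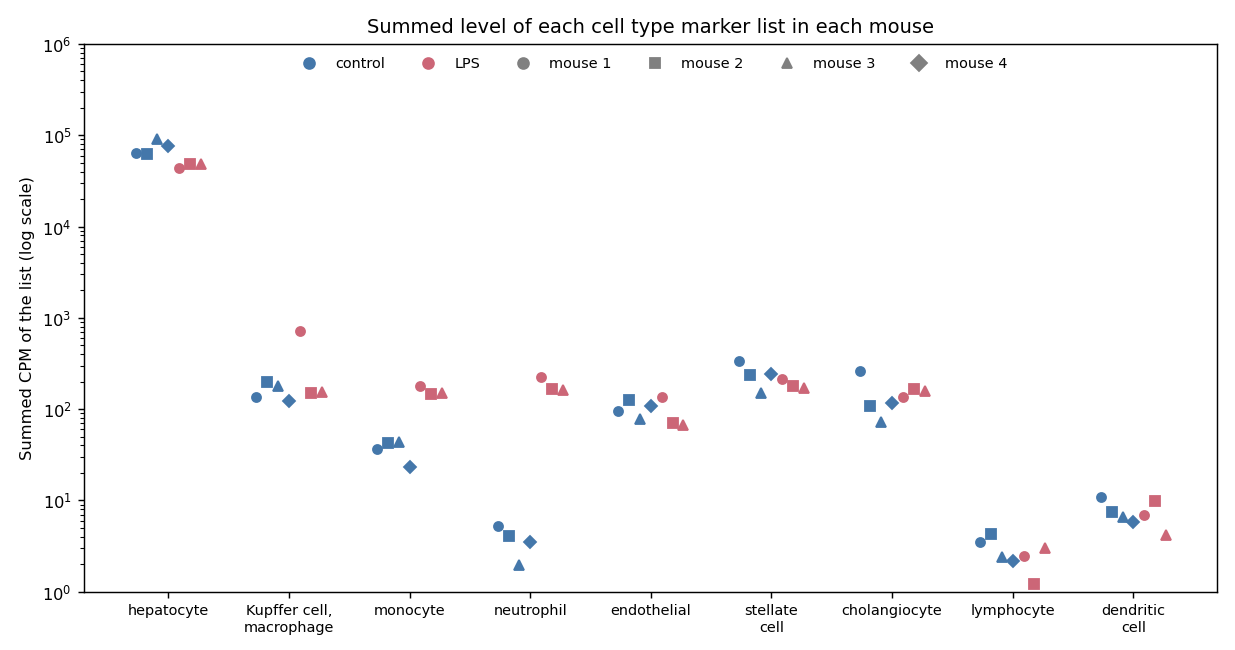
Summed CPM of each cell type marker list (vertical axis, log scale) in each of 4 control mice (blue) and 3 LPS mice (red), with symbols for mouse number. The neutrophil and monocyte sums are higher in all LPS mice than in any control mouse, the hepatocyte sum, most of which is Alb, is lower, and LPS mouse 1 stands above all others in the Kupffer cell and macrophage sum at 709.8 CPM.

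RefSeq promoters of build GRCm38.p6 matched 4 of the 8 genes, Acod1, Gch1, Odc1 and Sat1, and Nos2, Ido1, Ido2 and Slc7a2 had no entry. The 250 bases before the start were searched on both strands for 6 motifs. They were NF-kappa B (by its consensus), the gamma-activated site GAS (TTCNNNGAA), the interferon regulatory factor motif IRF (GAAANNGAA), C/EBP (TTGCNNAA), the E-box (CACGTG) and the TATA box (TATAAA). Of 32851 promoters, 7.25% held the NF-kappa B motif, 7.02% GAS, 7.13% IRF, 9.56% C/EBP, 6.02% the E-box and 12.4% the TATA box. Odc1 and Sat1 held none of the 6. The promoters of Acod1 and Gch1 are printed since these are the called genes with an entry, and capitals mark the matches, which do not overlap. The Acod1 window lies at chr14:103046762-103047011 on the + strand and has 1 match, a TATA box that begins 28 bases before the start. The Gch1 window lies at chr14:47189414-47189663 on the - strand and has an NF-kappa B match that begins 10 bases before the start and a TATA box match on the opposite strand that begins 188 bases before it. A match describes these letters only, and no binding was measured.
Acod1: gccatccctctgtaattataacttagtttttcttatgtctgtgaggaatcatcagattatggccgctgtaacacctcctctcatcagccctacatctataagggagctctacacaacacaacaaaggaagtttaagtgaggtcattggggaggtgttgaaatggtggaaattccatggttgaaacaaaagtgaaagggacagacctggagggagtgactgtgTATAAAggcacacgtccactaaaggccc
Gch1: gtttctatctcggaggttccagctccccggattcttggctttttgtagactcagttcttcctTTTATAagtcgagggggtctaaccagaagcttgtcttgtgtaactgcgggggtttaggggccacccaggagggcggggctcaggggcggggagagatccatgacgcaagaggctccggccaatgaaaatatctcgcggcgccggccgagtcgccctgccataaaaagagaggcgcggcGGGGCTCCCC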

How the data were processed

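The authors deposited raw read counts per gene for 7 liver libraries, 4 control and 3 LPS. The submitters' processing notes name cutadapt 1.9.1, HISAT2 2.2.1, HTSeq 0.6.1, DESeq2 1.34.0 and the mouse build GRCm39. The annotation, the strand setting and the treatment of reads with several matches are not given in the sources used here. Everything else was computed from those counts in R 4.3.3. Genes were filtered with filterByExpr, scaled with TMM factors and tested with the quasi-likelihood test of edgeR 4.0.16 for LPS against control, with no covariate, and p-values were adjusted over all tested genes. The pipeline was tested on simulated counts. SEs were derived from the fold change and its F statistic, and 95% intervals use the t distribution of the fit. CPM is relative to TMM-scaled library size, and a log2 CPM used for similarity has a prior count of 2. Count ratios between genes have a pseudocount of 0.5. Intervals of count ratios between groups and floors of 3 counts cover counting error only, and molecular identifiers are not named in the sources used here.

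For Nos2 and Tnf, with 3 control counts in all, the ratio of summed counts with its exact interval replaces the lower bound that the test plan had named. Genes named by rule are the 8 genes, the related genes listed in the test plan, in each pathway list up to 3 called genes highest and 3 lowest, the 2 most similar genes of each tested gene, and of each marker list the most abundant gene and those at 0. Named besides are Sdha, as the most abundant gene of its list, and the genes marked in the text as named after their values were seen. The 8 genes and all lists were chosen with earlier results of these data known, and 1 further gene of the 9 chosen, with some list genes, is not reported here. Alternatives were DESeq2 1.42.0, other scaling, other filters, no fold threshold, a replicate block, LPS mice 2 and 3 summed and each mouse left out. The same alternatives for the other named pathway genes were added after seeing the data. GENCODE M21 (GRCm38), which holds 52073 of the 56691 gene identifiers and all 8 genes, served for exon lengths, overlaps and similar loci only, and no coordinates but those of promoter windows are given because the counts use another build.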

Additional observations from a re-analysis of the deposited data

Results flagged for a closer look

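In the 4 control mice, the levels of 21 named genes were searched for a single mouse far from the others, measured by its gap to the nearest mouse relative to the whole range, and 3 genes had one. Chance flags about 1 in 20 groups, a rate that does not hold for genes with few counts. A gene with counts in only 1 control mouse, such as Tnf, is always flagged. Smox was at 0.707 CPM in control mouse 1, below the 1.70 to 1.77 CPM of the other control mice. Ifng was at 0.353 CPM in control mouse 1, from 5 counts against 0, 0 and 1. Tnf was at 0.189 CPM in control mouse 2, from 3 counts, with 0 in the other control mice. The values of Ifng and Tnf rest on 5 counts or fewer, and their causes were not tested.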

How the results depend on the processing

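Acod1, Gch1 and Slc7a2 kept their direction and call in every alternative that could test them, 15 for Acod1 and 16 for each of the others. With at least 10 counts required in every mouse, Nos2 and Acod1 gave no value, 2 of the 8 genes were called in place of 3, and genes called higher numbered 693 against 1068. Without a fold threshold, 1824 genes were called higher and 1773 lower, against 1068 and 1000, and Ido2 was called at -0.61 (edgeR adjusted p = 0.00829). With LPS mice 2 and 3 summed, Nos2 had a fitted log2 fold change of 3.70 (adjusted p = 0.0630) and lost its call, and Sat1 turned to 0.0651, Ass1 to -0.0743 and Azin1 to -0.00500, none of these called. The log2 ratio of Slc7a2 to Slc7a1 turned to -0.00321. Total counts without scaling moved the median log2 fold change of all genes to -0.13, with 926 genes called higher and 1176 lower. Odc1 moved to -0.0183 (0.11 relative to that median), Ass1 to -0.14 (-0.0096 relative to it) and Azin1 to -0.12 (0.0126 relative to it). With the filter of 10 counts, Ass1 was at -0.0223 and Azin1 at -0.00851. The cause of these changes was not tested, beyond the smaller number of genes that the stricter filter tests and the genes that a rule without a fold threshold adds.

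In a fit with the replicate number as a replicate block, 995 genes were called higher and 926 lower, Nos2 was at 3.89 (edgeR adjusted p = 0.161), and Gucy1b1, with an adjusted p of 0.0516, was not called. Deviations of mice with the same number correlated at 0.18, -0.06 and 0.07, against -0.14 to 0.10 for mice with different numbers. Not every mouse correlated best with its own number. So few pairs cannot decide whether the numbers pair the mice.

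Leaving out 1 mouse at a time gave 945 to 1055 genes called higher, 792 to 1059 called lower and 3 of the 8 genes called each time. The log2 fold changes ranged from 3.15 to 4.72 for Nos2 (called in 2 of 7), 10.34 to 11.09 for Acod1 (fitted values, no bound), -0.69 to -0.55 for Ido2, -1.46 to -1.24 for Gch1, 1.16 to 1.49 for Slc7a2, -0.0381 to 0.30 for Odc1 and -0.19 to 0.13 for Sat1. For other named genes they ranged from -0.269 to 0.823 for Nos3, -0.0825 to 0.161 for Ass1 and -0.0408 to 0.0678 for Azin1, none called. The log2 ratio of Slc7a2 to Slc7a1 ranged from -0.17 to 0.56. With the 20 or 15 assignments left when a mouse is left out or mice are summed, no ratio could reach the threshold, so these settings test none. Depth limits Ido1, at 0 counts in all 7 mice, and Nos2, for which 1 read in a library (0.0460 to 0.0707 CPM) was worth about as much as its mean control level (0.0426 CPM).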
